A study of Mus musculus with 4 samples.

Results

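The 9 genes described here were Sox1, Pax6, Nes, Hes5, Neurog2, Ncam1, Ntn1, Ngfr and Myt1. They were chosen by name as genes of the neural lineage, together with the secreted guidance cue Ntn1 and the neurotrophin receptor Ngfr. All 9 were found by symbol among the 23235 gene symbols of each sample. Mouse haploid embryonic stem cells (haESCs), which hold a single copy of each chromosome, were treated with RDF or with its solvent DMSO, and RNA was sequenced from 2 samples of each condition. The cells were of HG165, an androgenetic line whose genome comes from the sperm alone, derived from C57BL/6 mice. RDF is a mixture of Repsox, an inhibitor of the TGF-β pathway, DMH1, an inhibitor of BMP4 signalling, and Forskolin, an activator of adenylate cyclase that raises cyclic AMP. Every sample came from this 1 line, and the sources used here give neither the doses, the length of treatment nor any sorting of haploid cells for the sequenced samples. The described culture used serum and LIF. The labels name feeder cells, whereas the methods limit feeders to a few assays, among which RNA-seq is not listed. The share of cells that had become diploid was not measured here. The sources do not say that samples of a condition came from separate cultures, so the p-values measure the spread between these samples, which may be technical.

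Embryonic stem cells freed of signals that maintain pluripotency can enter the neural lineage, and inhibition of both BMP and TGF-β signalling is a common step in protocols that direct them there. Along that path the SoxB1 factor Sox1 marks the first committed neuroectoderm, Pax6 and Nes mark neural progenitors, Hes5 responds to Notch signals that hold progenitors back from becoming neurons, and Neurog2 starts neurogenesis. Ncam1 is an adhesion molecule of neural cells. Ntn1 encodes netrin-1, which guides axons through the receptors Dcc, Neo1 and the Unc5 proteins. Ngfr encodes p75, a low-affinity receptor of all neurotrophins and a marker of neural crest cells, the migratory cells that leave the dorsal neural tube.

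Expression was given as FPKM, which divides the fragments of a gene by transcript length and by library size, a scale on which levels of different genes can be set side by side. Fold changes are RDF minus DMSO on the log2(FPKM + 1) scale, which understates the change of low genes. Testing was done with limma on genes whose mean over all 4 samples reached 1 FPKM. A gene was called when its Benjamini-Hochberg adjusted p over all 11733 tested genes was under 0.05. Depth was estimated from the steps of low values at 10400000 to 13300000 fragments per sample. With 2 samples per condition, the smallest two-sided p that exact permutation allows is 0.333, so none is given for single genes.

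The samples were checked against cell type markers. All 8 embryonic stem cell markers had a mean of at least 1 FPKM, and Pou5f1, a core pluripotency factor, was at 939 to 1285 FPKM. Of the 8 markers, Zfp42 and Sox2 rose and Pou5f1, Tdgf1, Utf1 and Dppa5a fell with RDF, and their summed level was 7748 to 7808 FPKM in DMSO and 4547 to 5017 in RDF. Most of this sum was Dppa5a, at 5493 and 5539 FPKM in DMSO and 3232 and 2839 in RDF. Zfp42, Tdgf1 and Utf1 were called under every setting tested. The call of Pou5f1 was lost with no filter and without DMSO replicate 1 or either RDF replicate. That of Sox2 was lost without the mean-variance trend and without DMSO replicate 2 or either RDF replicate, and that of Dppa5a without RDF replicate 2. Of the 8 neuron markers present, 3 were tested and called, Elavl3 at 8.78 to 14.9 FPKM, Tubb3 at 24.1 to 54.5 and Stmn2 at 90.3 to 108, and 5 had means under 1 FPKM. Among the latter, Dcx was listed at 0 in both DMSO samples and at most 0.0182 FPKM with RDF, and Syt1 was above 0 in 1 sample only, at 0.0172 FPKM. Of 8 glial markers, 4 had a mean of at least 1 FPKM, Aldh1l1 at 4.09 to 7.83 FPKM over the samples, Mbp at 2.46 to 4.68, Sox10 at 0.854 to 2.22 and Olig2 at 1.18 to 1.92, and S100b was listed at 0 in all 4 samples. In bulk samples, fewer cells of a type and less RNA per cell cannot be told apart.

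Among the 9 members, 5 passed the filter on low values and 4 (Sox1, Hes5, Neurog2 and Myt1) did not. Ntn1 rose, Ngfr fell, and Pax6, Nes and Ncam1 were not called. Over all tested genes 21.6% were called, 13.3% higher and 8.28% lower. Ntn1, Ngfr and Myt1 had been named by the study for their change in these same samples, so their values are a description and not independent evidence. The study placed Ntn1 among risen genes that promote proliferation or the cell cycle, and Ngfr and Myt1 among fallen genes that inhibit them. The RDF and DMSO values did not overlap for 6 of the 9 members, against 55.7% of all symbols above 0 in at least 1 sample, and for 4 of the 5 tested members, against 65.5% of all tested genes. Both RDF values were the higher for Sox1, Pax6 and Ntn1 and the lower for Nes, Hes5 and Ngfr, and the values overlapped for Neurog2, Ncam1 and Myt1.

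**Figure D1:**
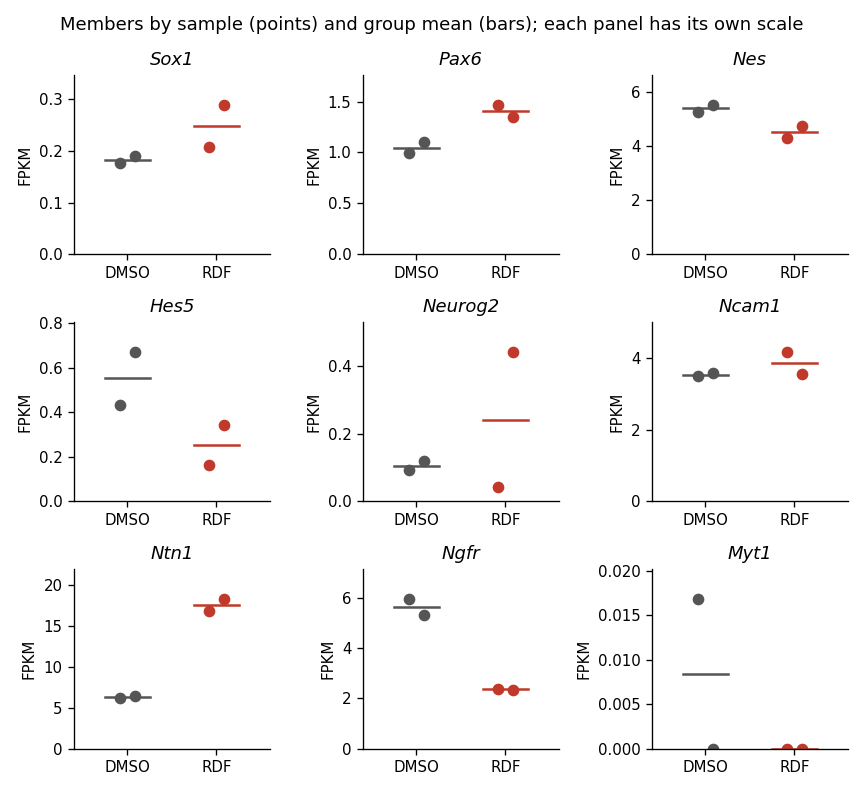
FPKM of the 9 members in each sample (points, 2 DMSO and 2 RDF) with the mean of each condition (bars), each panel with its own linear axis from 0. Ntn1 lies at 16.9 and 18.3 FPKM with RDF against 6.22 and 6.49 with DMSO, Ngfr at 2.37 and 2.35 against 5.97 and 5.32, and the points of the other members lie closer together or near 0.

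In order of level in DMSO, Ntn1 was the highest of the 9, at 6.35 ± 0.188 FPKM (SD, n = 2), followed by Ngfr at 5.65 ± 0.459, Nes at 5.39 ± 0.186 and Ncam1 at 3.54 ± 0.0515. The values of Ngfr and Nes overlapped, so these neighbours did not differ beyond their spread. Pax6 was at 1.04 ± 0.0771 FPKM, Hes5 at 0.553 ± 0.168, Sox1 at 0.183 ± 0.00915 and Neurog2 at 0.106 ± 0.0174. With RDF the order was Ntn1, Nes, Ncam1, Ngfr, Pax6, and then Hes5, Sox1 and Neurog2, whose values overlapped each other. Among all symbols, Ntn1 moved from above 69.3% of them in DMSO to above 81.5% in RDF, and Ngfr from above 67.7% to above 57.2%. Nes stood above 67.1% and 64.3%, Ncam1 above 62.2% and 62.5%, and Pax6 above 50.2% and 52.4%.

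The transcription factors that open the neural programme were at low levels in both conditions. Sox1 was at 0.177 and 0.19 FPKM in the DMSO samples and at 0.207 and 0.29 in the RDF samples. Both RDF values were above both DMSO values, but the gene was below the filter, and in a fit without the filter its adjusted p (limma) was 0.449. Sox1 had no entry in the NCBIM37 annotation used for positions and transcript lengths.

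Pax6, a paired-box factor of the neural tube and eye, lies at chr2:105509053-105543317 on the plus strand (NCBIM37). It was at 0.99 and 1.1 FPKM with DMSO and at 1.47 and 1.35 with RDF. The RDF samples were the higher without overlap, at a log2 fold change of 0.24 (SE 0.113, 95% interval -0.04 to 0.51) and an adjusted p of 0.185 by limma, so the difference did not pass the threshold. The gene overlaps Elp4 on the opposite strand, a subunit of the Elongator complex, which was at 7.25 and 6.36 FPKM with DMSO and 4.74 and 5.66 with RDF. The library kit marked strand, but whether the counting used it is not stated in the sources used here, so reads of the overlap may be assigned to either gene.

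The 250 bases before the start of Pax6 are shown because, among the windows of the members, this alone held the cyclic AMP response element TGACGTCA. This element binds CREB, an effector of cyclic AMP, which Forskolin raises. The sequence is chr2:105668646-105668895 on the plus strand of GRCm38.p6, a later build than that of the files, from RefSeq, and the element is in capitals.
Pax6: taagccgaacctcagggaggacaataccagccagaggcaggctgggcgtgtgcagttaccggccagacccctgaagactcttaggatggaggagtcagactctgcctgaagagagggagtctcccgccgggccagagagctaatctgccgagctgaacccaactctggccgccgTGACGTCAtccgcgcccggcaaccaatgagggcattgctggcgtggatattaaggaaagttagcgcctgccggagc
The element began 76 bases before the start, and 1.55% of the 32851 promoters of the same length held it on either strand. The other start listed for Pax6 had no such element in its window, and neither had Sox1, Nes, Hes5, Neurog2, Ngfr or Myt1. Pax6 was not called, and these letters do not show binding. Of the 9 members, 7 matched the promoter table and Ncam1 and Ntn1 did not.

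Nes encodes nestin, the intermediate filament protein of neural progenitors, at chr3:87775000-87784373 on the plus strand. It was at 5.26 and 5.52 FPKM in DMSO and at 4.3 and 4.74 in RDF. Both RDF values were the lower, with a log2 fold change of -0.21 (SE 0.0898, 95% interval -0.43 to 0.01) and an adjusted p of 0.142 by limma. The interval bounds the size of any change of Nes and does not show that the conditions were alike.

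Hes5 encodes a bHLH repressor that Notch signalling induces, at chr4:154335032-154336480 on the plus strand. It was at 0.434 and 0.671 FPKM with DMSO and at 0.163 and 0.345 with RDF. These levels correspond to about 5.07 and 9.12 fragments in the DMSO samples and 2.43 and 4.65 in the RDF samples. Without the filter the log2 fold change was -0.31 with an adjusted p (limma) of 0.173, and with so few fragments a difference of this size was not resolved at this depth.

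The 250 bases before the start of Hes5, chr4:154960673-154960922 on the plus strand of GRCm38.p6 (RefSeq), are shown because Notch acts through the DNA-binding factor Rbpj. Capitals mark the Rbpj core motif TGGGAA, as read on the gene's strand or as its complement.
Hes5: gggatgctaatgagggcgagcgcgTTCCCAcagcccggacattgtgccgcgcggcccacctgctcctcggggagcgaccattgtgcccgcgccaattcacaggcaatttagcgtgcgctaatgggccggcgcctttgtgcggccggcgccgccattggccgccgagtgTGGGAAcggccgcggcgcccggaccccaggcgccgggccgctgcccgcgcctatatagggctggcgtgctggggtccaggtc
The matches began 226 and 82 bases before the start. At least 1 match was held by 21.6% of all promoters, and a match does not show binding.

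Neurog2, a proneural bHLH factor at chr3:127336054-127338549 on the plus strand, was at 0.0933 and 0.118 FPKM with DMSO and at 0.042 and 0.442 with RDF. RDF replicate 1 was the lowest of the 4 samples and RDF replicate 2 the highest, at about 1.16 and 11 fragments. The log2 fold change without the filter was 0.15 with an adjusted p (limma) of 0.603, and -0.09 when RDF replicate 2 was left out. No direction can be given for Neurog2.

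Ncam1 lies at chr9:49310257-49607027 on the minus strand. It was at 3.5 and 3.58 FPKM in DMSO and at 4.18 and 3.57 in RDF, so RDF replicate 2 lay among the DMSO samples. The log2 fold change was 0.10 (SE 0.102, 95% interval -0.15 to 0.35, adjusted p 0.509 by limma). A gene model on the opposite strand, Gm11149, overlaps it and was at most 0.207 FPKM.

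Ntn1, at chr11:68022866-68214325 on the minus strand, had the largest difference among the members. It was at 6.22 and 6.49 FPKM in the DMSO samples and at 16.9 and 18.3 in the RDF samples, about 370 and 449 fragments against 1284 and 1256. Both RDF values were more than 10 FPKM above both DMSO values. The mean rose from 6.35 ± 0.188 to 17.6 ± 1.01 FPKM (SD, n = 2), a ratio of 2.77. The log2 fold change was 1.34 (SE 0.0761, 95% interval 1.15 to 1.52, adjusted p 0.000615 by limma). Over 11 alternative settings it was 1.28 to 1.45 with adjusted p of 0.000592 to 0.0219, past the threshold in each.

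Ngfr, at chr11:95430132-95449049 on the minus strand, moved the other way. It was at 5.97 and 5.32 FPKM with DMSO and at 2.37 and 2.35 with RDF, about 205 and 212 fragments against 104 and 92.9. The RDF samples were close to each other and both below the DMSO samples. The mean fell from 5.65 ± 0.459 to 2.36 ± 0.0181 FPKM (SD, n = 2), a ratio of 0.418. The log2 fold change was -0.98 (SE 0.0966, 95% interval -1.22 to -0.75, adjusted p 0.00273 by limma). Over the 10 alternatives in which Ngfr was tested it was -1.22 to -0.91 with adjusted p of 0.00263 to 0.0402. A filter of 5 FPKM on the mean left it out.

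The 250 bases before the start of Ngfr are chr11:95587699-95587948 on the minus strand of GRCm38.p6 (RefSeq), written along the gene. They are shown because Ngfr is the member that fell, and capitals mark the GC box GGGCGG, which binds Sp1-type factors, on either strand.
Ngfr: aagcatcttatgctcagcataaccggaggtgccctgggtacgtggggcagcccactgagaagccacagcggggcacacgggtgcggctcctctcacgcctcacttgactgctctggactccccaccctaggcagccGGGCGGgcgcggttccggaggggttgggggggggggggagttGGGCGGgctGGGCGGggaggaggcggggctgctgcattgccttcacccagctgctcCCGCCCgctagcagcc
The window held 4 GC boxes, 114, 72, 63 and 16 bases before the start, and 32.7% of all promoters held at least 1. It held no TGACGTCA, no TGGGAA and no CAGAC, a motif bound by Smad proteins that 42.2% of promoters held. These letters describe the window and do not show binding.

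**Figure D2:**
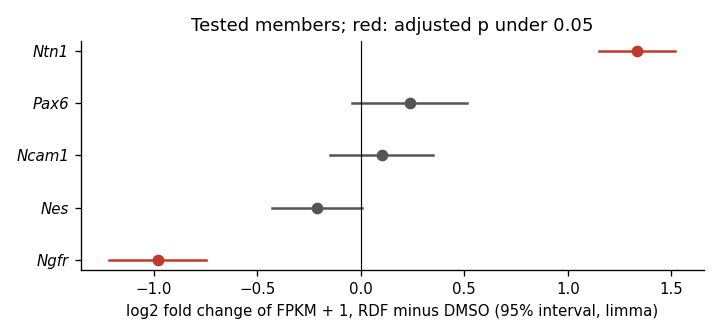
Log2 fold change of FPKM + 1, RDF minus DMSO, of the 5 tested members (points) with 95% intervals from limma (lines), red where the adjusted p was under 0.05. Ntn1 at 1.34 and Ngfr at -0.98 lie away from 0, and the intervals of Pax6, Ncam1 and Nes include 0.

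Myt1, a zinc finger factor of neuronal and oligodendrocyte precursors at chr2:181498037-181562502 on the plus strand, was at 0.0168 FPKM in DMSO replicate 1, about 0.938 of a fragment. It was listed at 0 in the other 3 samples. No difference between the conditions could be detected at this depth, and no fold is given. The mean under this symbol was 0.00841 FPKM in DMSO and 0 in RDF. A named fall of Myt1 would therefore rest here on that part of a fragment in 1 sample. The study also reported reduced Myt1 with RDF by Q-PCR, in androgenetic and parthenogenetic lines, and called it a negative regulator of the transition to mitosis. The name Myt1 is also used for the protein of another gene, Pkmyt1, a kinase that restrains entry into mitosis by phosphorylating Cdk1. Which gene the study meant is not settled here. Pkmyt1 was at 18.3 and 19 FPKM with DMSO and at 16.1 and 16 with RDF, a log2 fold change of -0.20 (SE 0.0619, 95% interval -0.35 to -0.05). Its adjusted p by limma was 0.0639, and it passed the threshold under median-ratio scaling and quantile normalization. Wee1, a kinase that acts on the same protein, rose from 24.8 and 22.7 to 37.9 and 37 FPKM, by 0.64 on the log2 scale (adjusted p 0.0031, limma). The study, in contrast, reported no change of Wee1 with RDF, by Q-PCR of lines including HG165 and by western blot of another line. The relatives of the zinc finger gene, Myt1l and St18, had means of at most 0.029 FPKM over the 4 samples.

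The receptors of netrin-1 were described next. Neo1 was the highest of them, at 13.1 and 12.9 FPKM in DMSO and 14 and 15.7 in RDF, with a log2 fold change of 0.18 (95% interval -0.01 to 0.37) and an adjusted p of 0.142 by limma. Unc5b, a repulsive receptor that can also signal cell death when netrin is absent, was at 8.73 and 8.71 FPKM in DMSO and 5.92 and 5.77 in RDF. Unc5b thus fell, in the direction opposite to its ligand Ntn1, by 0.51 on the log2 scale (SE 0.0753, adjusted p 0.00846, limma). Its adjusted p was 0.0574 without RDF replicate 1 and 0.0667 without RDF replicate 2. Unc5a was at 1.45 and 1.06 FPKM in DMSO and 0.712 and 1.01 in RDF (adjusted p 0.226, limma). Dcc, the classical attractive receptor, was listed at 0 in 3 samples and at 0.00841 FPKM in DMSO replicate 2, and Unc5c and Unc5d were at most 0.0849 and 0.0245 FPKM in any sample.

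Of the 23 other genes of netrin signalling, 12 were tested, 2 rose, 1 fell and 9 were not called, with a median log2 fold change of 0.11 beside 0.03 over all tested genes. Rgmb, a ligand of Neo1 and co-receptor of BMPs, rose from 4.71 and 3.53 to 6.74 and 6.7 FPKM, by 0.60 on the log2 scale (adjusted p 0.022, limma). Ablim1, an actin-binding protein, rose from 1.43 and 1.26 to 2.34 and 2.37 FPKM (adjusted p 0.0211). The most highly expressed gene of the list, the focal adhesion kinase gene Ptk2, was at 17.2 and 17.3 FPKM in DMSO and 19.2 and 19.3 in RDF and was not called (adjusted p 0.12, limma). None of the 3 calls was made when either RDF replicate was left out. Without DMSO replicate 2, 1 of the list's 12 genes was higher and 1 was lower.

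**Figure D3:**
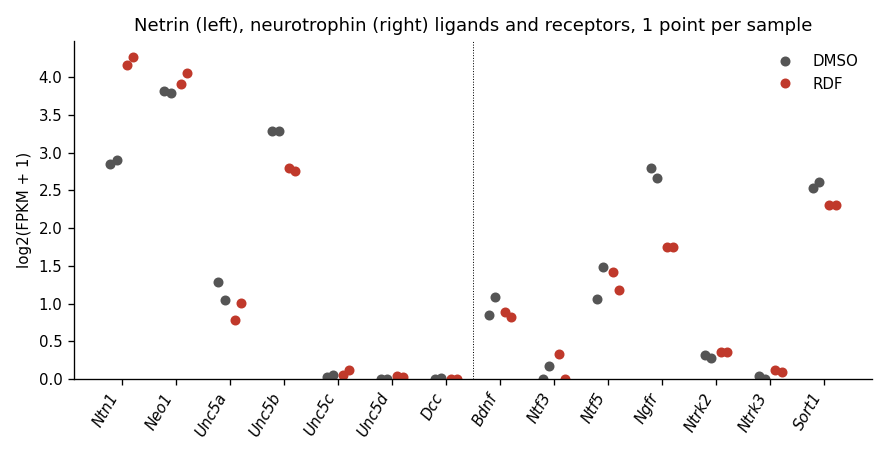
Log2(FPKM + 1) of netrin-1 and its receptors (left of the dotted line) and of neurotrophin ligands and receptors (right) in each sample, DMSO in grey and RDF in red. Ntn1 is higher and Unc5b and Ngfr are lower in both RDF samples, while Dcc, Unc5c and Unc5d lie at or near 0.

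Other receptors of neurotrophins, Ntrk2, Ntrk3 and Sort1, were lower than Ngfr in DMSO. Ntrk2 was at 0.212 to 0.281 FPKM over the 4 samples and Ntrk3 at most 0.0838. Sort1, which encodes sortilin, a co-receptor of p75 for neurotrophin precursors, was at 4.78 and 5.1 FPKM in DMSO and 3.95 and 3.93 in RDF. It lay lower in both RDF samples, as Ngfr did, but its adjusted p was 0.0794 (limma), and it passed the threshold only under quantile normalization. After RDF, Sort1 was therefore above Ngfr in both samples, whereas both DMSO values of Ngfr were above those of Sort1.

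The list of neurotrophin ligands, receptors and adaptors held 27 genes, of which 18 were tested. None rose and 2 fell by limma, with a median log2 fold change of 0.05. At an unadjusted p under 0.05 (limma), 1 was higher and 3 were lower, with no share of all tested genes given beside them. The other 9 had means under 1 FPKM. Maged1, an adaptor that binds p75, fell from 121 and 122 to 85.2 and 89.1 FPKM, by 0.47 on the log2 scale (adjusted p 0.00373, limma), and was called under every setting tested. Arhgdia, an inhibitor of small GTPases, fell from 146 and 151 to 115 and 127 FPKM (adjusted p 0.027) but was not called when DMSO replicate 2 or either RDF replicate was left out, with no filter, without the trend or under quantile normalization. Bex1, an adaptor of p75 and the most highly expressed gene of the list, was at 1230 to 1492 FPKM and was not called (adjusted p 0.431, limma).

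Other genes that accompany neural progenitors were counted as a list. Of 28 further genes of neuroectoderm and neural progenitors, 12 were tested, 3 rose and none fell by limma, with a median log2 fold change of 0.17. At an unadjusted p under 0.05 (limma), 4 were higher and 1 was lower. The share of all tested genes at that level is not given here, so these counts were not compared with it. Sox2, a SoxB1 factor shared by pluripotent and neural stem cells and the highest of the list, rose from 97.3 and 95.8 to 117 and 114 FPKM (0.26 on the log2 scale, adjusted p 0.0187). Sox21 rose from 3.26 and 2.65 to 4.68 and 4.38 FPKM (0.49, adjusted p 0.0284, limma), and Irx3, a homeobox gene of the neural tube, from 0.769 and 0.691 to 1.75 and 1.55 FPKM (0.61, adjusted p 0.017, limma). Irx3 passed the filter only through its RDF samples, as its DMSO mean was 0.73 FPKM. None of the 3 calls was made without RDF replicate 1 or without RDF replicate 2, and 1 was made without DMSO replicate 2. Sox21 also lost its call with no filter and Sox2 without the trend. The other 16 genes had means under 1 FPKM.

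Among 24 proneural and neuronal genes, 23 were in the files, of which 10 were tested, 4 rose and 2 fell, with a median log2 fold change of 0.14. Map2 was not analysed here. The neurofilament gene Nefm rose from 2.81 and 2.47 to 6.67 and 5.91 FPKM, by 1.00 on the log2 scale (SE 0.103, adjusted p 0.00312, limma). Nefl rose from 17 and 15.3 to 23.7 and 22.5 FPKM (0.49), and the RNA-binding protein gene Elavl3 from 8.78 and 9.57 to 13.7 and 14.9 FPKM (0.59). Rest, which encodes a repressor of neuronal genes in other cells, rose too, from 16.1 and 15.3 to 21.3 and 22 FPKM (0.44, adjusted p 0.00789, limma). In the other direction the β-tubulin gene Tubb3 fell from 54.5 and 47.6 to 26.7 and 24.1 FPKM, by 0.98 on the log2 scale (SE 0.087, adjusted p 0.00211, limma). Stmn2, a microtubule regulator and the highest of the list, fell from 103 and 108 to 91.3 and 90.3 FPKM (-0.21, adjusted p 0.0375). Only Nefm and Tubb3 of these 6 were called under every setting tested. Without RDF replicate 1, 2 of the list were higher and 1 lower, and without RDF replicate 2, 1 was higher and 1 lower. Without DMSO replicate 2, 4 were higher and 1 lower. The summed level of the 8 neuron markers present was 166 to 167 FPKM in DMSO and 130 to 133 in RDF, most of it Tubb3 and Stmn2, and its part in the results was not tested.

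**Figure D4:**
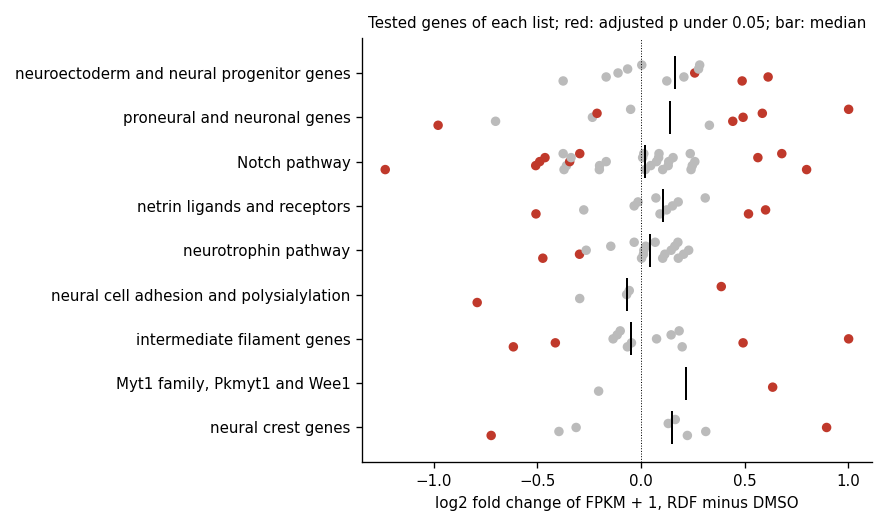
Log2 fold change of FPKM + 1, RDF minus DMSO, of every tested gene (1 point each) in the 9 gene lists, red where the adjusted p was under 0.05, with the list's median as a black bar. Most points lie between -0.5 and 0.5, and the list medians lie between -0.07 and 0.22. The median of 0.22 is that of the Myt1 family list, whose only tested genes were Pkmyt1 and Wee1.

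Notch signalling acts upstream of Hes5. Of its 35 genes, 31 were tested, 3 rose, 6 fell and 22 were not called, with a median log2 fold change of 0.02. With an unadjusted p under 0.05 (limma) there were 4 higher and 11 lower, also without a share of all tested genes. The receptors did not move together: Notch1 rose from 2.2 and 2.15 to 3.61 and 3.79 FPKM (0.56, adjusted p 0.0116, limma), Notch3 fell from 4.28 and 4.38 to 2.54 and 3.08 FPKM (-0.49, adjusted p 0.0257, limma), and Notch4 fell from 7.2 and 6.38 to 2.4 and 2.22 FPKM. The fall of Notch4 was 1.23 on the log2 scale (SE 0.0986, adjusted p 0.00159, limma). Dtx1, a ubiquitin ligase and target of Notch, rose from 11.7 and 12.2 to 21.3 and 21.7 FPKM (0.80, adjusted p 0.00159), and Maml1, a coactivator of the Notch complex, from 2.79 and 2.37 to 4.39 and 5.07 FPKM (0.68). Dll3, a ligand that dampens Notch, fell from 3.05 and 2.79 to 1.85 and 1.66 FPKM (-0.51), and Hes6, which opposes Hes1, fell from 21.8 and 25.2 to 17.4 and 16 FPKM (-0.46). The list's highest gene, the γ-secretase subunit gene Psenen, was at 84.8 to 104 FPKM over the samples and was not called. Notch4 and Dtx1 were called under every setting tested. The list had 1 higher and 1 lower call without either RDF replicate, 3 and 3 without DMSO replicate 2, and 3 and 4 without DMSO replicate 1.

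The 20 genes of neural cell adhesion beside Ncam1 were mostly low: 15 had means under 1 FPKM, 3 of these listed at 0 in all samples. Of the 5 tested, Mcam, an adhesion molecule of vessels and melanoma and the highest of the list, fell from 3.28 and 3.19 to 1.55 and 1.36 FPKM (-0.79, adjusted p 0.00601, limma), with no call without RDF replicate 2. Cntn2 rose from 1.43 and 1.49 to 2.26 and 2.18 FPKM (0.39, adjusted p 0.0442), a call that was lost when any 1 of the 4 samples was left out. The median of the list was -0.07.

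Of 15 intermediate filament genes beside Nes, 13 were tested, 2 rose and 2 fell, with a median log2 fold change of -0.05. Those that rose were Nefm and Nefl, already given. Vim, the partner of nestin in progenitors and the highest of the list, fell from 138 and 139 to 88.9 and 91.1 FPKM, by 0.62 on the log2 scale (SE 0.0507, adjusted p 0.00164, limma), and was called under every setting tested. Krt19, a keratin of simple epithelia, fell from 98.1 and 101 to 77.5 and 71.9 FPKM (-0.41, adjusted p 0.00788), with no call without RDF replicate 2. Without either RDF replicate Nefm alone of the list was called higher.

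Neural crest genes were listed beside Ngfr. Of 16 genes, 8 were tested, 1 rose and 1 fell, with a median log2 fold change of 0.15. Sox10, a factor of crest and glia, fell with Ngfr from 2.18 and 2.22 to 0.854 and 1.03 FPKM (-0.72, SE 0.112, adjusted p 0.00939, limma), but was not called without RDF replicate 1 or without RDF replicate 2. The RDF mean of Sox10 was 0.941 FPKM, so Sox10 passed the filter only through its DMSO samples. Tfap2c, which is also a gene of trophoblast and naive pluripotency and is the highest of the list, rose from 27.2 and 25.1 to 48.3 and 50.7 FPKM (0.90, adjusted p 0.00119, limma). It was called under every setting tested. Without DMSO replicate 1, 2 genes of the list were lower.

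Markers of other cell types moved with the conditions too. The summed level of 12 fibroblast markers was 54.7 and 55.8 FPKM in DMSO and 38.6 and 37.4 in RDF. Of the 8 tested, Col1a1, Postn, Col1a2, Fbln2 and Thy1 fell and Dcn rose, and no fibroblast marker was at 0 in all samples. Thy1 lost its call without RDF replicate 2, and the other 5 were called under every setting tested. Postn passed the filter only through its DMSO samples, as its RDF mean was 0.69 FPKM. The sum of 8 primitive endoderm markers was 17.5 to 18 FPKM in DMSO and 22.6 to 25.4 in RDF, with 1 of 3 tested genes, Gata6, higher (adjusted p 0.0428, limma). The call of Gata6 was lost with a pseudocount of 0.1, no filter, either scaling or no trend, and without DMSO replicate 2 or either RDF replicate. The 8 glial markers summed to 11.8 to 12 FPKM in DMSO and 14.2 to 16 in RDF, with Aldh1l1 and Mbp higher and Sox10 lower among 4 tested. None of these 3 glial calls was made under every setting: Mbp lost its call with no filter and without DMSO replicate 1 or either RDF replicate, Aldh1l1 without RDF replicate 2, and Sox10 without either RDF replicate. The 8 mesoderm markers summed to 8.34 to 10.4 FPKM in DMSO and 9.14 to 9.3 in RDF. None of the 2 tested genes was called by limma, and 0 had an unadjusted p under 0.05. The sum hides differences: both RDF values were lower for 3 of the 8, higher for 2 and overlapped for 3. T, under the filter at a mean of 0.909 FPKM, was at 1.63 and 1.27 FPKM in DMSO and 0.333 and 0.401 in RDF. Mixl1 was at 0.278 and 0.347 FPKM in DMSO and 0.087 and 0.151 in RDF. The study named both among fallen genes, and neither was tested here. The part of these cell types in the values of Ntn1, Ngfr and the other members was not tested.

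The genes whose pattern over the 4 samples was closest to that of Ntn1 were found by the Euclidean distance between centred log2(FPKM + 1) values among all tested genes. They were Phlda1 (distance 0.058), Gzme (0.0866) and Gpr124 (0.118). Phlda1 was at 4.78 and 4.94 FPKM in DMSO and 13.3 and 13.7 in RDF. For Ngfr, Ctsw (0.0556) and Tulp1 (0.0931) were among the 3 closest, and Ctsw, a cathepsin gene, was at 2 and 1.7 FPKM in DMSO and 0.414 and 0.371 in RDF. The distance depends on the size of the difference as well as on its direction.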

How the data were processed

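RNA-seq libraries had been made from 150 ng of total RNA of 2 DMSO and 2 RDF samples with a stranded mRNA kit. The authors mapped reads with TopHat2 2.0.14 and Bowtie2 2.1.0 to mm9 and deposited FPKM from Cufflinks 2.2.1, per the submitters' processing notes and the methods. Strand settings and the treatment of reads that map to several genes are not given in the sources used here. Both could move reads between overlapping or similar genes.

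FPKM were used as deposited, with 1 added before log2. Tests used limma 3.58.1 in R 4.3.3 (lmFit, eBayes with a mean-variance trend) on the 11733 genes whose mean reached 1 FPKM. The fit was first run on simulated normal values. Their spreads were shuffled among genes, so that run did not check the trend. Depth was estimated from single-transcript genes. At the chosen depth only 42.6 to 47.9% of their low values per sample lay within 0.1 of a whole fragment, so the depth is rough. Fragments of a gene were estimated from its FPKM, that depth and its longest annotated transcript, so they are too high where shorter transcripts were expressed. They cover counting precision only and are approximate. Positions came from NCBIM37 and promoters from RefSeq.

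The members and the 9 lists were chosen with earlier results of these data known. Named were all members, the listed receptors, Pkmyt1, the highest gene of each list, the 4 largest rises and 4 largest falls past the threshold per list, and the 3 genes most like Ntn1 and Ngfr. Some genes that this rule names are not reported here. Alternatives were another pseudocount, other filters, 2 other scalings, a replicate block, no trend and each sample left out.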

Additional observations from a re-analysis of the deposited data

How the results depend on the processing

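Ntn1 was called higher under every alternative and Ngfr lower under each in which it was tested. Over all genes, 942 were higher and 606 lower with no filter, and 253 to 1121 higher and 195 to 731 lower with 1 sample left out, fewest without RDF replicate 2. With the replicate number as a block, 1651 genes were higher and 1066 lower, the higher call in the adhesion list went to 0, the lower calls in the neural crest list went to 2, and no call of a member changed. Deviations of same-numbered samples correlated at r = 0.134 and rho = 0.114 across 11733 genes, and with 2 pairs the samples are taken to share only a number.

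Median-ratio scaling gave 1336 higher and 1179 lower genes and quantile normalization 1247 and 1089, against 1561 and 972 as reported. Under both, the neuroectoderm list gained 1 lower call and the adhesion list had 0 higher. The list of Myt1 relatives with Pkmyt1 and Wee1 also gained 1 lower call, that of Pkmyt1. Quantile normalization left 1 lower proneural gene, and of the 2 lower neurotrophin genes it exchanged Arhgdia for Sort1. Without the trend, lower calls were 1 in the neuroectoderm, 1 in the proneural, 1 in the neurotrophin and 2 in the adhesion list.

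A filter of 5 FPKM left 0 lower members, 1 higher gene each in the neuroectoderm, Notch, netrin and intermediate filament lists, 3 lower Notch genes, 0 adhesion genes in either direction and 0 lower neural crest genes. No filter left 1 lower proneural, 2 lower Notch, 1 higher netrin, 1 higher and 1 lower neurotrophin and 0 higher adhesion genes, and of the 3 higher neuroectoderm genes it exchanged Sox21 for Nkx6-1. A pseudocount of 0.1 moved the log2 fold change of Sox1 to 0.29, of Hes5 to -0.91 and of Myt1 to -0.11.

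With 1 sample left out, calls per list ranged, higher then lower, from 0 to 3 and 0 to 0 in neuroectoderm, 1 to 4 and 1 to 2 in proneural, 1 to 3 and 1 to 4 in Notch, 0 to 2 and 0 to 1 in netrin, 0 and 1 to 2 in neurotrophin, 0 and 0 to 1 in adhesion, 1 to 2 and 1 to 2 in intermediate filament, and 1 and 0 to 2 in neural crest genes. The log2 fold change ranged from 0.03 to 0.12 for Sox1, 0.20 to 0.27 for Pax6, -0.27 to -0.16 for Nes, -0.42 to -0.20 for Hes5, -0.09 to 0.38 for Neurog2, 0.01 to 0.19 for Ncam1 and -0.02 to 0 for Myt1. The cause of these changes was not tested, other than that fewer genes or samples enter some fits. A condition reduced to 1 sample was assumed to vary like the other. Depth limits Hes5, Neurog2 and Myt1, which rest on at most about 11 fragments per sample.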

Other observations

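Below the filter of 1 FPKM, 2 genes of the 9 pathway lists passed the threshold in the fit without a filter, and they are named here after their values were seen. Sorcs2, a sorting receptor that partners p75 at the cell surface, was at 0.436 and 0.473 FPKM with DMSO and at 1.29 and 1.34 with RDF, a log2 fold change of 0.67 with an adjusted p (limma) of 0.0211. Its direction was opposite to that of Ngfr. Nkx6-1, a homeobox gene of the ventral neural tube, was at 0.16 and 0.223 FPKM with DMSO and at 0.691 and 0.751 with RDF, a log2 fold change of 0.53 with an adjusted p (limma) of 0.0241.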
